A study of Mus musculus with 12 samples.

Results

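The interleukin 6 family was followed in mouse veins through 10 genes, picked by symbol out of the 43346 genes of the deposited table. They are the ligands Il6, Lif, Osm and Il11, the receptor chains Il6ra, Il11ra1, Lifr, Osmr and Il6st, and the feedback inhibitor Socs3. All 10 were found and all 10 passed the filter on low counts. The set was put together with earlier results of these data in view, in which Il6ra had the smallest p of the 18965 genes tested, so the differences of the members between the groups are given as a description and not as a test.

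RNA-seq libraries were made from total RNA of the jugular vein after sham surgery (n = 6) and of the venous limb of the AVF after AVF-CKD surgery (n = 6, the fistula veins), all taken 7 days after the operation. The letters are read here as arteriovenous fistula, a surgical join of an artery to a vein, and chronic kidney disease, and the labels give neither strain, sex nor age. The fistula group thus differed from sham in surgery, in the piece of vessel sampled and, on this reading, in kidney disease, and these cannot be told apart. Nothing in the labels ties each library to its own mouse, so errors measure the spread between these samples, which may be technical. In whole tissue, fewer cells of a type and less RNA per cell cannot be told apart either.

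Cytokines of this family signal through a shared receptor chain, gp130, which Il6st encodes. Interleukin 6 and interleukin 11 first bind their own receptors (Il6ra and Il11ra1), which have little signalling activity of their own, and then recruit gp130. Leukaemia inhibitory factor (Lif) and oncostatin M (Osm) bring gp130 together with a further signalling chain, Lifr or Osmr. The assembled receptors activate Janus kinases and the transcription factor Stat3, and Stat3 induces Socs3, whose product binds gp130 and shuts the signal down. In vessels, macrophages, fibroblasts, smooth muscle and endothelial cells are known sources or targets of these cytokines.

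The promoters of the receptor gene with the largest difference (Il6ra), of the feedback gene (Socs3) and of the ligand that names the family (Il6) were searched for the letters of known control elements of this pathway. The 250 bases before the start site are printed from RefSeq (GRCm38.p6), 5′ to 3′ on the strand of the gene, with matches in capitals. RefSeq promoters were matched for 9 of the 10 members, all but Osm.
Il6ra chr3:89913197-89913446 (minus strand): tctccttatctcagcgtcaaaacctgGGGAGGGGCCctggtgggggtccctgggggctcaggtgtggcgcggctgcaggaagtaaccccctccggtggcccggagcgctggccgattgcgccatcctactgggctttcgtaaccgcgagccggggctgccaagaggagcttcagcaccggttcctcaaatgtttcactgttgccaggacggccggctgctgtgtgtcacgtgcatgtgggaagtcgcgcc
Socs3 chr11:117969367-117969616 (minus strand): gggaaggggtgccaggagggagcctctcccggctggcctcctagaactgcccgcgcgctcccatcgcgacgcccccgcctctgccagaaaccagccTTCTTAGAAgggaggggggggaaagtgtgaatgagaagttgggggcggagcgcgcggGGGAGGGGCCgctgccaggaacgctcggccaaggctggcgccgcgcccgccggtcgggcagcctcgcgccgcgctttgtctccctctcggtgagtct
Il6 chr5:30012864-30013113 (plus strand): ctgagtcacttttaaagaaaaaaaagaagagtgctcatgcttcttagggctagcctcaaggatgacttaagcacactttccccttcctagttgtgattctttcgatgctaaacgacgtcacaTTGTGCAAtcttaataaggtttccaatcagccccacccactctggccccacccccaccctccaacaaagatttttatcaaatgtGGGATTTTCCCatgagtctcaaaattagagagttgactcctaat
These elements were searched on both strands. The Stat element TTCNNNGAA was matched in Socs3 alone among the 9 members (TTCTTAGAA, from -154 to -146 relative to the start site) and in 7.02% of all 32851 promoters of that length. The NF-kB element GGGANNNNCC was matched in Il6 (GGGATTTTCC from -44 to -35, overlapped by a match on the other strand from -43 to -34), in Socs3, Il6ra, Lif, Lifr and Osmr, and in 17.6% of all promoters. The C/EBP element TTGCNNAA was matched on the opposite strand of Il6 from -128 to -121 and in 9.56% of all promoters. These matches describe the letters and were not measured as binding sites.

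Total counts per library ranged from 43445591 to 60142016 in sham veins and from 38653830 to 52003341 in fistula veins. The tissue carried endothelial genes (7 markers, summed level 1046 to 1455 CPM in sham veins and 870 to 1416 CPM in fistula veins) and contractile smooth muscle genes (6 markers, 1792 to 2471 and 1178 to 2278 CPM), where CPM is a count scaled to the size of its library. Several libraries stood apart in genes outside the family, which were named after their values were seen. The clock output gene Dbp was at most 21.4 CPM in AVF-CKD 6 and sham 4, 5 and 6, and at least 77.7 CPM in the other 8 libraries. Skeletal muscle markers summed to 428 (sham 3) to 11405 CPM (sham 4) in sham veins. In fistula veins they summed to 740 (AVF-CKD 5) to 10715 CPM (AVF-CKD 2). Adipocyte markers ranged from 580 to 2507 CPM in sham veins (median 851) and from 434 to 948 CPM in fistula veins (median 555). Log2 fold changes were positive for 0 of 7 adipocyte, 1 of 7 endothelial, 2 of 6 smooth muscle and 1 of 7 skeletal muscle genes. The edgeR quasi-likelihood test over all genes called 0 of 18965 genes at an adjusted p below 0.05 (0% called), with 1772 genes under 0.05 before adjustment. limma voom with sample weights likewise called 0 (2124 before adjustment), and DESeq2 called 81 (2216 before adjustment).

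Per deposited gene length, the receptor chains and Socs3 stood on average above the ligands. The levels and their order depend on the lengths used. Averaged over the 12 libraries, Il6st stood at 40.8 CPM per kilobase ± 4.32 (SD, n = 12), Socs3 at 33.2 ± 9.34 and Il11ra1 at 25.8 ± 5.68. Il6ra (8.75 ± 1.92), Osmr (6.01 ± 0.448) and Lifr (5.95 ± 0.954) formed a second tier. The ligands came last, Il6 at 3.78 ± 1.79, Lif at 2.61 ± 0.776, Osm at 1.97 ± 0.579 and Il11 at 0.663 ± 0.246 CPM per kilobase. The ranges over libraries of neighbours in this order overlapped throughout, except between Il11ra1, whose lowest library was at 18.5, and Il6ra, whose highest was at 11.1 CPM per kilobase. The level of Il11ra1 is uncertain, because 60.0% of the 50-base words of its longest transcript also occur in transcripts of Il11ra2 and Gm13305.

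**Figure D1:**
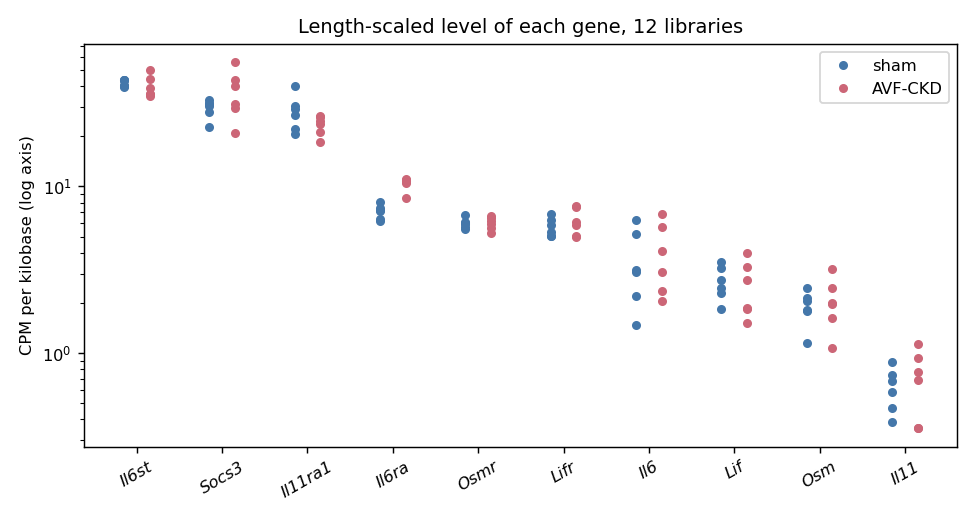
Level of each family gene in CPM per kilobase of the deposited gene length (log axis), genes ordered by their mean, 1 point per library, sham in blue and AVF-CKD in red. Receptor chains and Socs3 lie to the left and ligands to the right, and the Il6ra points of the 2 groups are the only ones in the plot that do not overlap.

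Il6ra, the ligand-binding receptor of interleukin 6, was the member that separated the groups. In sham veins it ranged from 20.9 to 26.9 CPM with a median of 23.9, and in fistula veins from 28.6 to 37.1 CPM with a median of 35.99. Every fistula library lay above every sham library, the nearest being AVF-CKD 3 at 28.6 CPM and sham 3 at 26.9 CPM. The means were 23.6 CPM ± 2.27 (SD, n = 6) and 34.9 CPM ± 3.17 (SD, n = 6), a 1.48-fold difference with a 95% interval of 1.30 to 1.67. Among all genes tested 0.417% lay wholly above sham and 0.221% wholly below, and Il6ra was the only such gene of the 10. Nothing is read from that count here, since this contrast took part in choosing the set. The other 5 fistula libraries spanned only 34.8 to 37.1 CPM.

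Il6ra was not called in the test over all genes (edgeR adjusted p = 0.246). Its log2 fold change was 0.56 ± 0.08 (SE, as for all log2 fold changes given here) over all libraries, 0.47 within title numbers 1 to 3, 0.65 within numbers 4 to 6 and 0.51 without the 4 libraries of low Dbp. Without AVF-CKD 3 the log2 fold change was 0.61 and Il6ra became the single gene called (edgeR adjusted p = 0.0330). Across the 22 alternatives its adjusted p lay between 1.17e-05 (DESeq2) and 0.556 (edgeR without AVF-CKD 4). These values come from the libraries whose difference was known when the set was chosen, so they describe that difference and lend it no support.

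Cells that carry this receptor were also represented in the libraries. Macrophage markers (9 of 10 matched, none at 0 in any library) summed to 5785 to 11627 CPM in sham veins (median 7945) and 6167 to 11346 CPM in fistula veins (median 10230), so that the ranges overlapped and the median was higher in fistula veins. Most of this sum was Lyz2, with means of 5709 CPM in sham veins and 6551 CPM in fistula veins (log2 fold change 0.20 ± 0.23). Of the 9 macrophage genes tested 6 had positive log2 fold changes, the largest being those of Cd14 (0.50 ± 0.25) and Mertk (0.48 ± 0.11, edgeR unadjusted p = 0.000842, adjusted p = 0.390). The negative ones were C1qa (-0.05 ± 0.23), C1qb (-0.01 ± 0.23) and Fcgr1 (-0.02 ± 0.25). Neutrophil markers summed to 120 to 315 CPM in sham veins and 124 to 414 CPM in fistula veins, with Ly6g, Ngp and Camp below 1 CPM on average in both groups. T cell markers summed to 19.6 to 75.1 CPM in sham veins (median 47.8) and 32.7 to 64.9 CPM in fistula veins (median 41.7). B cell markers summed to 4.40 to 15.5 CPM (median 12.8) and 5.93 to 17.3 CPM (median 9.30). Log2 fold changes were positive for 1 of 7 T cell genes and 1 of 5 B cell genes. Hepatocytes are rich in the receptor. Of their 5 markers Alb, Apoa1 and Serpina1a averaged at most 0.134 CPM in either group and Ttr was at 0 in all libraries, so that the summed level (67.5 to 329 CPM in sham veins, 102 to 179 CPM in fistula veins) was almost wholly that of Cyp2e1, which fat also expresses. The part of leukocyte content in the level of Il6ra was not tested. The table counts Il6ra (ENSMUSG00000027947, GRCm38 chromosome 3, 89869324 to 89913162) over 3343 bases, against 8642 exonic bases in GENCODE M21, where 2.80% overlap the opposite-strand model Gm42809.

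**Figure D2:**
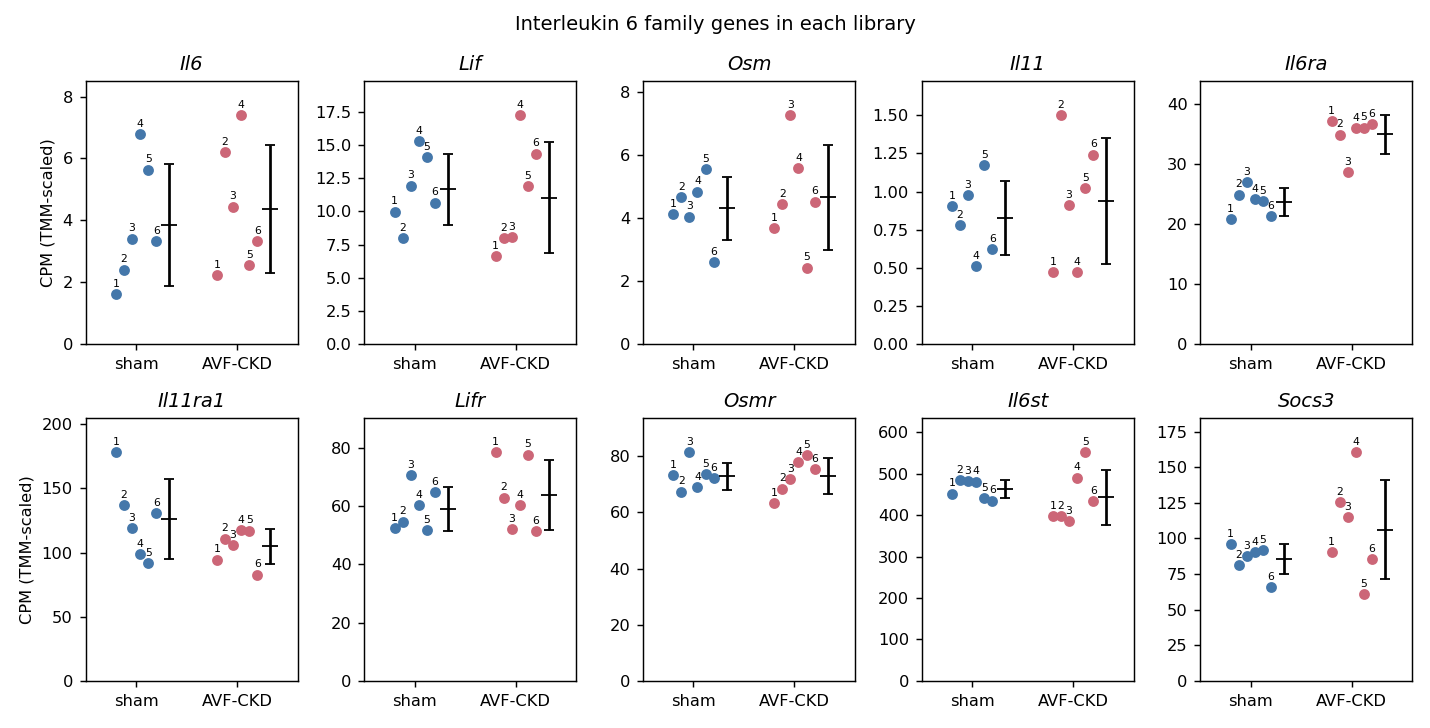
CPM of each member in each library (vertical axes start at 0), with title numbers beside the points, sham in blue, AVF-CKD in red, and the mean with its SD in black. Il6ra shows the 6 AVF-CKD libraries at 28.6 to 37.1 CPM above the 6 sham libraries at 20.9 to 26.9 CPM, and the groups overlap in the other 9 panels.

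The shared chain gp130 did not separate the groups. Il6st (ENSMUSG00000021756, chromosome 13, 112464070 to 112510086) ranged from 435 to 484 CPM in sham veins (median 467) and from 385 to 552 CPM in fistula veins (median 416). The sham libraries were tightly grouped, with a coefficient of variation of 4.80%, and the fistula libraries reached both further down and further up, with 14.9%. The log2 fold change was -0.06 ± 0.10, with a 95% interval for the fold of 0.829 to 1.11. Within each library, gp130 transcripts per deposited gene length were 5.38 to 6.53 times those of Il6ra in sham veins (median 5.94). In fistula veins they were 3.22 to 4.62 times those of Il6ra (median 3.81). The size of these multiples depends on the lengths used. Their difference between the groups carries that of Il6ra, which was known when the set was chosen, and is not a separate result. Within the groups, the genes whose log2 CPM followed Il6st most closely among 10271 ranked genes were Arrb1 (r = 0.93), Ndrg4 (0.93), Adamtsl1 (0.92), Tgfbr3 (0.92) and Tnxb (0.92), over 12 libraries after removal of the group means. For Il6ra they were Srgap2 (0.94), Elf1 (0.89), Snx30 (0.89), Synj1 (0.88) and Gpr133 (0.87). These correlations are descriptions, picked as the highest of many, over libraries that also share their tissue makeup.

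Neither of the further signalling chains separated the groups. Osmr, the chain for oncostatin M (ENSMUSG00000022146, chromosome 15, 6813577 to 6874969), ranged from 67.4 to 81.5 CPM in sham veins (median 72.7) and from 63.2 to 80.4 CPM in fistula veins (median 73.5). Its means were 72.8 CPM ± 4.90 (SD, n = 6) and 72.8 CPM ± 6.37 (SD, n = 6), and the 95% interval of the fold, 0.900 to 1.11, was the narrowest of the 10 members. Lifr, the chain for leukaemia inhibitory factor (ENSMUSG00000054263, chromosome 15, 7129559 to 7197489), ranged from 51.9 to 70.7 CPM in sham veins (median 57.6) and from 51.3 to 78.6 CPM in fistula veins (median 61.6). The highest Lifr values, 78.6 and 77.7 CPM, belonged to AVF-CKD 1 and 5, the other fistula libraries lay inside the sham range or just below it, and the log2 fold change was 0.11 ± 0.12. Per deposited gene length Osmr and Lifr were present at about the same level, with a median Osmr to Lifr ratio of 1.02 in both groups. This ratio depends on the lengths used. The deposited lengths were 12113 bases for Osmr and 10330 for Lifr, whereas their longest transcripts held 5442 and 9595 words of 50 bases.

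Il11ra1, the receptor of interleukin 11 (ENSMUSG00000073889, chromosome 4, 41699989 to 41769474), had the lowest fold change of the 10. It ranged from 92.0 to 178 CPM in sham veins (median 125) and from 82.9 to 118 CPM in fistula veins (median 108). Sham 1 at 178 CPM, sham 2 at 137 CPM, sham 6 at 131 CPM and sham 3 at 119 CPM lay above all fistula libraries, and sham 4 and 5 lay within the fistula range. The log2 fold change was -0.27 ± 0.15, with a 95% interval for the fold of 0.665 to 1.04. The libraries numbered 1 to 3 alone gave -0.48, and those numbered 4 to 6 gave -0.02.

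**Figure D3:**
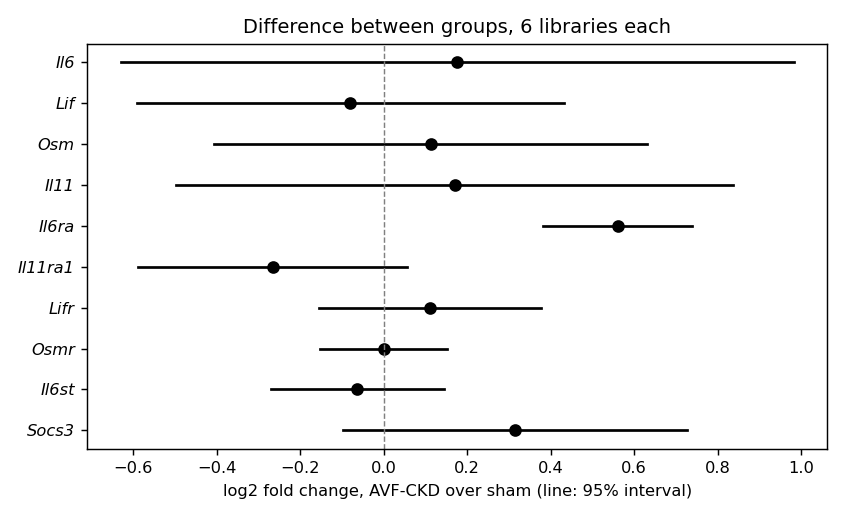
Log2 fold change of AVF-CKD over sham for each member (point) with its 95% interval (line), from the fit over all genes, 6 libraries per group. The interval of Il6ra lies to the right of 0, from 0.38 to 0.74, and the intervals of the other 9 members include 0.

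The ligands spread widely between libraries of the same group, and the groups overlapped for each of the 4. Il6 (ENSMUSG00000025746, chromosome 5, 30013161 to 30019968) ranged from 1.61 to 6.79 CPM in sham veins (median 3.37) and from 2.24 to 7.39 CPM in fistula veins (median 3.88), a spread of 4.22-fold and 3.30-fold. High values occurred in sham 4 and 5 and in AVF-CKD 2 and 4, and low ones in sham 1 and AVF-CKD 1. The log2 fold change was 0.18 ± 0.37, with a 95% interval for the fold of 0.647 to 1.98. It was 0.79 within title numbers 1 to 3, -0.25 within numbers 4 to 6 and 0.88 without the 4 libraries of low Dbp, 2 of which were the sham libraries with the most Il6.

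Lif (ENSMUSG00000034394) and Osm (ENSMUSG00000058755) both lie on chromosome 11, at 4257557 to 4272514 and 4236420 to 4241026. Lif ranged from 8.01 to 15.3 CPM in sham veins (median 11.3) and from 6.62 to 17.2 CPM in fistula veins (median 9.98). Its highest library was AVF-CKD 4, which also had the most Il6, and its lowest AVF-CKD 1, so the fistula range enclosed the sham range. The log2 fold change was -0.08 ± 0.24. Osm, a product of macrophages and neutrophils, ranged from 2.60 to 5.55 CPM in sham veins (median 4.40) and from 2.43 to 7.26 CPM in fistula veins (median 4.48). AVF-CKD 3 had the most Osm and, among the 12 libraries, the highest summed level of neutrophil markers (414 CPM). The least Osm was found in AVF-CKD 5 and sham 6, whose neutrophil markers summed to 124 and 275 CPM, and the lowest neutrophil level, 120 CPM, belonged to sham 1, with Osm at 4.14 CPM. The log2 fold change of Osm was 0.11 ± 0.24. Il11, a ligand linked to fibroblast activation (ENSMUSG00000004371, chromosome 7, 4773055 to 4782857), was the rarest member, with 22 to 64 counts per library. It ranged from 0.510 to 1.17 CPM in sham veins and from 0.470 to 1.5 CPM in fistula veins, with a log2 fold change of 0.17 ± 0.31. Its 95% interval, 0.709-fold to 1.79-fold, does not show whether the groups differed.

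Socs3 (ENSMUSG00000053113, chromosome 11, 117966079 to 117970047) scattered more between fistula libraries than any of the 5 receptor chains did. It ranged from 66.1 to 95.8 CPM in sham veins (median 89.0) and from 60.9 to 161 CPM in fistula veins (median 103). AVF-CKD 4, 2 and 3 lay above all sham libraries at 161, 125 and 115 CPM, AVF-CKD 1 and 6 lay inside the sham range, and AVF-CKD 5 was the lowest of the 12. The coefficient of variation was 12.5% in sham veins and 33.0% in fistula veins. The means of 85.5 CPM ± 10.7 (SD, n = 6) and 106 CPM ± 35.1 (SD, n = 6) gave a log2 fold change of 0.31 ± 0.19 and a 95% interval for the fold of 0.934 to 1.65.

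Because Socs3 is the gene that this pathway induces, its level was compared with that of the other 9 members within the groups. The comparison of the groups takes the spread of each gene within the groups as its error, but not how genes vary together. After removal of the group means from log2 CPM, Socs3 was highest where Osm was high, with Pearson r = 0.77 (permutation p = 0.0102, adjusted p = 0.0915 over 9 relations) and Spearman rho = 0.68 (permutation p = 0.0339, adjusted p = 0.305) over 12 libraries. For Il6 the values were r = 0.56 (permutation p = 0.0558, adjusted p = 0.251) and rho = 0.54 (permutation p = 0.0750, adjusted p = 0.337). Neither passed the adjusted threshold of 0.05, and the other 7 relations had r between -0.44 and 0.16. Without AVF-CKD 4 and 5, the libraries farthest from the median of Socs3, r was 0.65 for Osm and 0.36 for Il6.

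Within the groups and subsets, r with Osm was 0.82 in sham veins and 0.78 in fistula veins, and 0.38 and 0.86 within title numbers 1 to 3 and 4 to 6. The r with Il6 was 0.04 in sham veins and 0.88 in fistula veins, and 0.58 and 0.96 in the same subsets of numbers. Each of these subsets held 6 libraries, and neither relation passed the adjusted threshold in any of them. Whether the r with Il6 differed between the groups was not tested. Without sham 1 both relations passed the adjusted threshold (adjusted p = 0.0459 for each by permutation), and without AVF-CKD 3 that with Osm did (adjusted p = 0.0365 by permutation). The lowest r with a single library left out was 0.59 for Osm, without AVF-CKD 5 (adjusted p = 0.533 by permutation). For Il6 it was 0.42, without AVF-CKD 4 (adjusted p = 0.539 by permutation). Osm is a product of macrophages and neutrophils, and Socs3 is made by leukocytes as well as by the vessel wall. The part of leukocyte content in the relation of Socs3 with Osm was not tested. AVF-CKD 5, lowest in both genes, also had the lowest macrophage (6167 CPM) and neutrophil (124 CPM) marker levels of its group. Sham 6, lowest in both genes among sham libraries, had the lowest macrophage level (5785 CPM) and the second highest neutrophil level of that group. Among all 10271 ranked genes the closest followers of Socs3 within the groups were Il4ra (r = 0.88), Cdk8 (0.87), Nek6 (0.85), Ralgds (0.82) and Agpat5 (0.82). Il4ra, which encodes a chain of the interleukin 4 receptor, was on the list of genes commonly induced by Stat3 or in the acute phase. Cdk8, Nek6, Ralgds and Agpat5 were not on it. These followers were picked as the highest of many, and r with the rest of that list is not reported here.

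**Figure D4:**
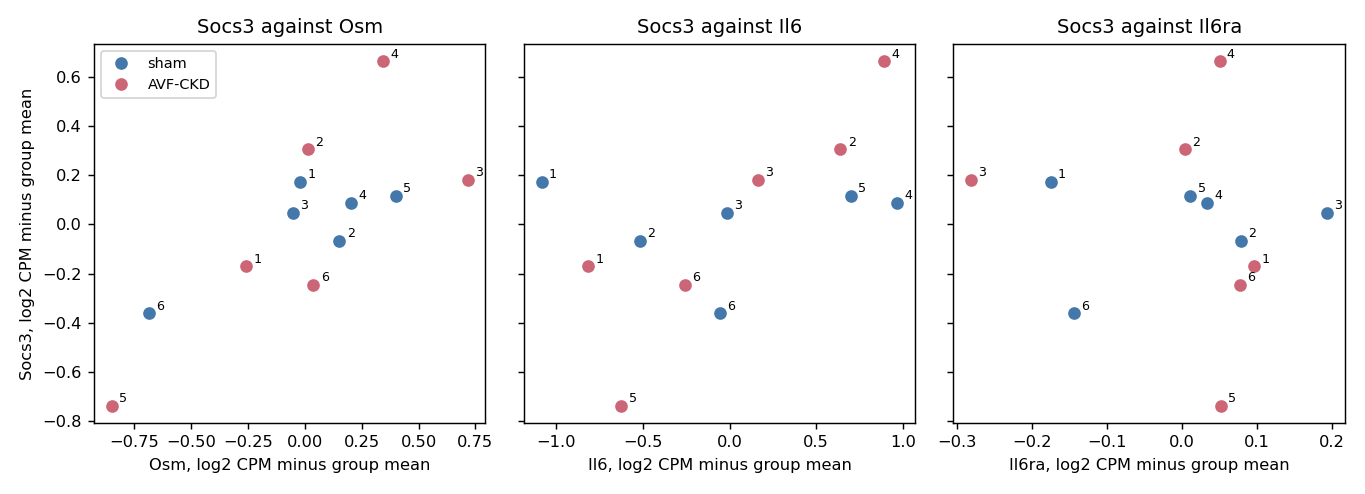
Socs3 (vertical axis) against Osm, Il6 and Il6ra (horizontal axes), each as log2 CPM minus the mean of its group, 1 point per library with its title number, sham in blue and AVF-CKD in red. The points climb from lower left to upper right for Osm (r = 0.77) and less closely for Il6 (r = 0.56), and show no such order for Il6ra (r = -0.12).

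None of the further genes of the pathway passed the edgeR test over all genes, as none of the 10 members did. Of 66 genes on 5 lists 63 were tested and 0 were called in either direction (edgeR, lowest adjusted p = 0.401), as with limma voom and DESeq2. Before adjustment 6 genes had a p below 0.05, all with higher means in fistula veins, against 5.26% higher and 4.08% lower among all genes tested. Positive log2 fold changes were seen for 43 of the 63 and for 9321 of all 18965 genes tested, with medians of 0.08 and -0.002. The lists were chosen with earlier results of these data known. Counts and medians of the lists, here and below, are therefore descriptions and not a test of the pathway. In none of the 63 were the groups free of overlap, against 0.417% wholly above sham and 0.221% wholly below among all genes tested. With shares that small, nothing is read from this count.

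Of the other ligands and receptors of the family, 9 of 12 were tested (6 positive, 3 negative, median 0.10). Clcf1, a ligand of the family, had a log2 fold change of 0.10 ± 0.08, Cntf, ciliary neurotrophic factor, of 0.24 ± 0.17, and Ebi3, a subunit of interleukin 27, of 0.17 ± 0.27. On the negative side, Il31ra was at -0.32 ± 0.22, the cardiotrophin gene Ctf1 at -0.17 ± 0.18 and Il27ra at -0.11 ± 0.14.

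The signal transducers had 10 positive and 1 negative log2 fold change of 11 tested (median 0.07). Tyk2, a Janus kinase, stood at 56.6 CPM ± 4.74 (SD, n = 6) in sham veins and 63.2 CPM ± 4.29 (SD, n = 6) in fistula veins (log2 fold change 0.16 ± 0.07), Stat5a was at 0.15 ± 0.07 and the adaptor gene Grb2 at 0.17 ± 0.08. Stat3, the main effector of gp130, was at 171 CPM in sham veins and 173 CPM in fistula veins, a log2 fold change of 0.01 ± 0.07. Negative regulators split into 5 positive and 4 negative of 9 (median 0.06). Socs7 was at 0.26 ± 0.12, Pias1 at 0.11 ± 0.08 and Socs5 at 0.12 ± 0.09, whereas Socs1 was at -0.51 ± 0.26, Socs2 at -0.20 ± 0.11 and Cish at -0.26 ± 0.23, and the most abundant of this list was the phosphatase gene Ptpn6 (109 CPM in sham veins and 133 CPM in fistula veins).

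The receptor of interleukin 6 can be cut from the cell surface by the proteases Adam10 and Adam17, the latter with the help of the iRhom proteins encoded by Rhbdf1 and Rhbdf2. Of these 4 genes 3 were positive and 1 negative (median 0.13). Rhbdf2 had a log2 fold change of 0.30 ± 0.12, ranging from 23.0 to 35.8 CPM in sham veins and 27.2 to 40.2 CPM in fistula veins, so that the groups overlapped. Adam10 was at 0.15 ± 0.10, Adam17 at 0.11 ± 0.08 and Rhbdf1 at -0.004 ± 0.08.

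Genes commonly induced by Stat3 or in the acute phase were 19 positive and 11 negative of 30 (median 0.08). Lcn2, which encodes the siderophore-binding lipocalin of neutrophils and stressed epithelium, ranged from 6.81 to 21.9 CPM in sham veins and from 17.3 to 73.8 CPM in fistula veins, a log2 fold change of 1.26 ± 0.38 with overlapping groups. Timp1, a metalloproteinase inhibitor, was at 0.38 ± 0.16. Saa3, an acute phase serum amyloid gene, spread from 35.2 to 331 CPM in sham veins and from 55.5 to 935 CPM in fistula veins (1.29 ± 0.77), a spread within each group that exceeds the difference between the means. The lowest p among negative values belonged to Zfp36 (-0.36 ± 0.17), Lrg1 (-0.34 ± 0.23) and Vegfa (-0.16 ± 0.11). The most abundant gene of the list per length was Ifitm3, which interferons also induce, at 433 CPM ± 136 (SD, n = 6) in sham veins and 387 CPM ± 93.5 (SD, n = 6) in fistula veins.

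**Figure D5:**
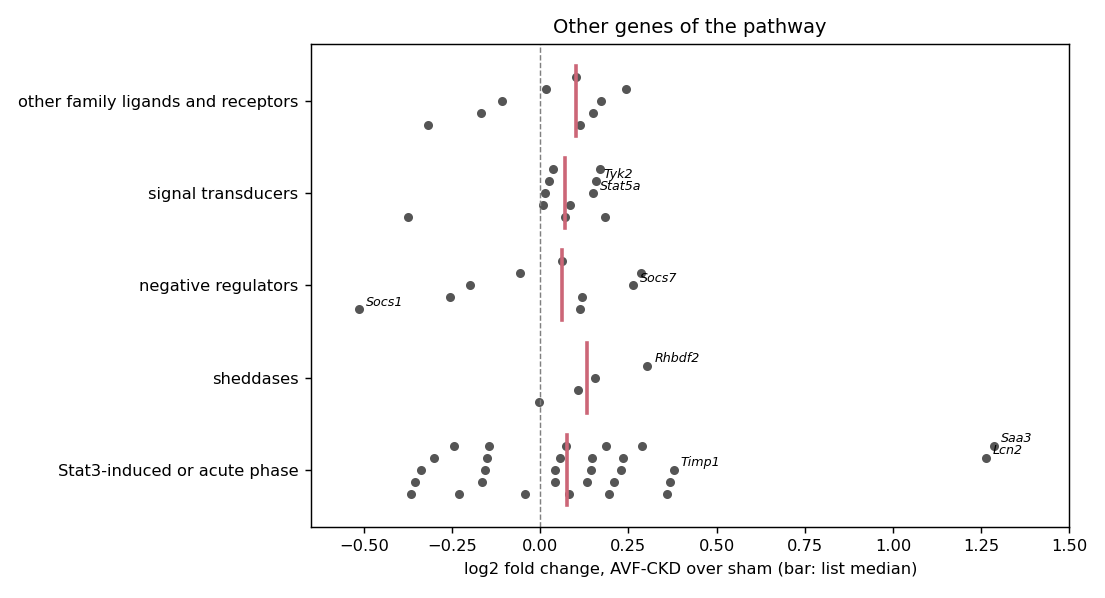
Log2 fold change of AVF-CKD over sham for the 63 tested genes of 5 pathway lists (grey points, vertical offsets for legibility only) and the median of each list (red bar). List medians lie between 0.06 and 0.13, names are printed for genes at an unadjusted p below 0.05 or beyond 0.5 in size, and none of the genes was called.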

How the data were processed

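RNA-seq of 6 sham and 6 AVF-CKD vein libraries was used, with groups and numbers taken from the sample titles. The authors deposited whole-number read counts and RPKM values per gene and library. The RPKM values deposited by the authors were not used. The submitters' processing notes name GRCm38, TopHat2 2.1.0, featureCounts and edgeR without giving their roles. For the annotation release, strand setting and filters, nothing is given in the sources used here. Reads of a gene and of an antisense neighbour therefore cannot be separated. Columns of other series numbered 0.

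Counts were filtered with filterByExpr, scaled by TMM and tested with the edgeR 4.0.16 quasi-likelihood test in R 4.3.3, with Benjamini-Hochberg adjustment over all genes and calls below 0.05. DESeq2 1.42.0, limma 3.58.1 voom, other scalings, filters, the title number as a block, title number sets and left-out libraries were alternatives. Standard errors and 95% intervals came from the F statistic. Log2 CPM used a prior count of 2. CPM per kilobase divides by the deposited gene length. Gene positions are those of the deposited table. Correlations were tested by 100000 two-sided permutations within groups. Scripts were tested on simulated data.

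The members and lists were chosen with earlier results of these data known. All 10 members were named. From each pathway list the rule named called genes, the most abundant gene per length and up to 3 genes in each direction with the smallest p, and some genes it named are not reported here. For Il6ra, Il6st and Socs3 it named the 5 genes most alike within the groups, among genes of at least 10 CPM. Stat3 and the marker genes, Dbp among them, were named after their values were seen. All 66 pairs of libraries differed by more than sampling noise.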

Additional observations from a re-analysis of the deposited data

Results flagged for a closer look

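Il6ra in AVF-CKD 3 stood at 28.6 CPM, apart from the other 5 libraries of its group at 34.8 to 37.1 CPM by more than Dixon's criterion at the 95% level allows. Chance alone marks about 1 in 20 groups, and both groups of each of the 10 members were examined.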

How the results depend on the processing

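The count of genes called (0) was 81 with DESeq2 and 0 to 1 when each library was left out in turn, the single call being Il6ra without AVF-CKD 3. It stayed at 0 under the other 9 alternatives, the title number as a replicate block among them (0 calls, 2058 genes at an unadjusted p below 0.05). The log2 fold changes of Il6ra, Il11ra1, Lifr and Socs3 kept their sign under all 22 alternatives. Within title numbers 4 to 6 the sign turned for Il6 (-0.25), Lif (0.12), Osm (-0.049), Osmr (0.12) and Il6st (0.12). It also turned for Il11 with limma voom (-0.13), for Osmr with the filter at 1 CPM (0.0015) and, without the 4 libraries of low Dbp, an alternative chosen after seeing the data, for Lif (0.054) and Il11 (-0.030). Leaving out each library gave ranges of -0.040 to 0.41 for Il6, -0.25 to 0.029 for Lif, -0.059 to 0.24 for Osm, -0.011 to 0.31 for Il11 and -0.031 to 0.034 for Osmr, and the cause was not tested. The number of Socs3 relations that passed (0) was 0 to 2 without each library and 0 under the other 9 alternatives. With the replicate block r was 0.71 for Osm and 0.68 for Il6, and 0 relations passed. Of the other 7 relations 6 changed sign under at least 1 alternative. Same-numbered libraries correlated between -0.11 and 0.28 in their deviations, with 3 of 6 pairs over 0.1 and 1 of 6 sham libraries closest to its own number, so the numbers were not taken as pairs. Counting precision was lowest for Il11, at 22 to 64 counts per library.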
